A study of Mus musculus with 30 samples.

Results

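Brain RNA from mice with a reduced dose of Ctcf was compared with brain RNA from wild-type (WT) mice. The comparison takes 6 of the 30 libraries of the series, all 6 labelled as brain: 3 WT and 3 Ctcf heterozygous libraries, chosen by tissue and genotype label and used for all genes. The mice were adult C57BL/6 animals, and the heterozygous group carried Ctcf haploinsufficiency (Ctcf+/-), with nothing else given to either group in the labels. The labels do not state the sex of the mice, how the Ctcf allele was made or which part of the brain the tissue pieces came from. The other libraries of the series are kidney, liver, muscle and spleen from the same design. RNA was measured by sequencing, as counts of fragments per gene over exons.

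CTCF is a DNA-binding zinc-finger protein that, together with cohesin, holds the ends of chromatin loops and the borders of contact domains. In neurons it is best known at the clustered protocadherins, families of adhesion genes in which each neuron uses a few of many alternative promoters, and CTCF binds at those promoters and at their enhancers. The gene is expressed in all tissues, and complete loss is lethal to most dividing cells.

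Total counts were 49.8 M to 131.6 M per library. No chromosome Y gene of the list used had a count in any of the 6 libraries, and Xist was at 290.4 to 564 CPM (CPM scales each library to a common total, here with TMM factors between libraries). Transcripts of the mitochondrial genome took 4.02% to 5.54% of the counts and cytoplasmic ribosomal protein genes 1.45% to 1.62%. The 2 libraries of replicate 3 stood apart from the other 4 on the main axis of variation, and heterozygous replicate 1 stood apart for interferon-stimulated genes and for hypothalamic genes. Both are described with their values, and several medians or counts that rest on them are given without them. The labels for brain fit the markers: Snap25, a synaptic fusion protein, was at 2081 to 2924 CPM, Mbp, a myelin protein, at 2916 to 3590 CPM and Apoe, the main astrocyte lipid carrier, at 1417 to 1645 CPM.

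Of 48709 genes in the table, 19166 had enough counts to be tested. At an adjusted p under 0.05 (edgeR quasi-likelihood test, Benjamini-Hochberg adjustment over all genes tested) 3 genes changed, or 0.0157% of those tested: Ctcf fell (0.00522%), and Carmil2 and Pcdhgb4 rose (0.0104%). Replicates carry numbers 1 to 3 in either genotype, and same-numbered libraries deviated together, so the test was also run with the replicate number as a block, which compares the heterozygous and WT library within each number. With the block 22 genes changed, or 0.115%, of which 12 rose (0.0626%) and 10 fell (0.0522%). Same-numbered libraries did not deviate together in every tissue, as given below with the replicate structure. A call made with the block is named as such below.

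Ctcf itself checked the genotype labels. Its level was 66.5, 68.1 and 71.7 CPM in WT replicates 1, 2 and 3 and 40.9, 44.4 and 42.8 CPM in the heterozygous replicates. The groups did not overlap, and the heterozygous mean was 62.1% of the WT mean. The log2 fold change (the fitted log2 difference, heterozygous minus WT) was -0.69 (SE 0.06, adjusted p 0.0259). A 2-sided exact permutation test of the level gave p = 0.1, the smallest that 3 against 3 libraries can give. Leaving out any 1 of the 6 libraries gave -0.72 to -0.65 and ended the call without the block (adjusted p 0.1005 to 0.292). The gene lies at chr8:105636568-105682922 on the plus strand of GRCm38, and its exons overlap those of Agrp and Gm5914, so fragments in the overlap were not counted.

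Carmil2, which encodes a regulator of actin capping known for its part in T-cell costimulation, showed the largest change among the 3. WT replicates were at 35.9, 42.6 and 34.9 CPM, and heterozygous replicates at 110.4, 109 and 93.9 CPM. The groups were far apart, with the lowest heterozygous library above the highest WT library by more than the spread within either group. The log2 fold change was 1.47 (SE 0.10, adjusted p 0.00773, and 8.6e-07 with the block). The gene (chr8:105686274-105698187, plus strand) is the neighbour of Ctcf on its downstream side, and its exons overlap those of Acd. Without WT replicate 1, heterozygous replicate 1 or heterozygous replicate 2 the adjusted p was 0.204, 0.0603 and 0.0850.

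Other genes near Ctcf moved little. Of 107 other genes that start within 1 Mb of Ctcf, Carmil2 included, 58 were tested, 26 were higher and 32 lower in heterozygous libraries, and the median log2 fold change was -0.02. The median over all genes tested was -0.0043. Besides Carmil2 and Ctcf, Tppp3, a tubulin-binding protein, was at 57.2, 60.4 and 49.8 CPM in WT and 44.5, 40.2 and 42.2 CPM in heterozygous libraries. The groups did not overlap, with a log2 difference of -0.40 (SE 0.08) and an adjusted p of 0.066 with the block. Zdhhc1, a palmitoyltransferase, was at 36.5, 36.3 and 32.1 CPM in WT and 42.1, 42.5 and 38.5 CPM in heterozygous libraries, a log2 difference of 0.23 (SE 0.08, adjusted p 0.25 with the block).

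**Figure D1:**
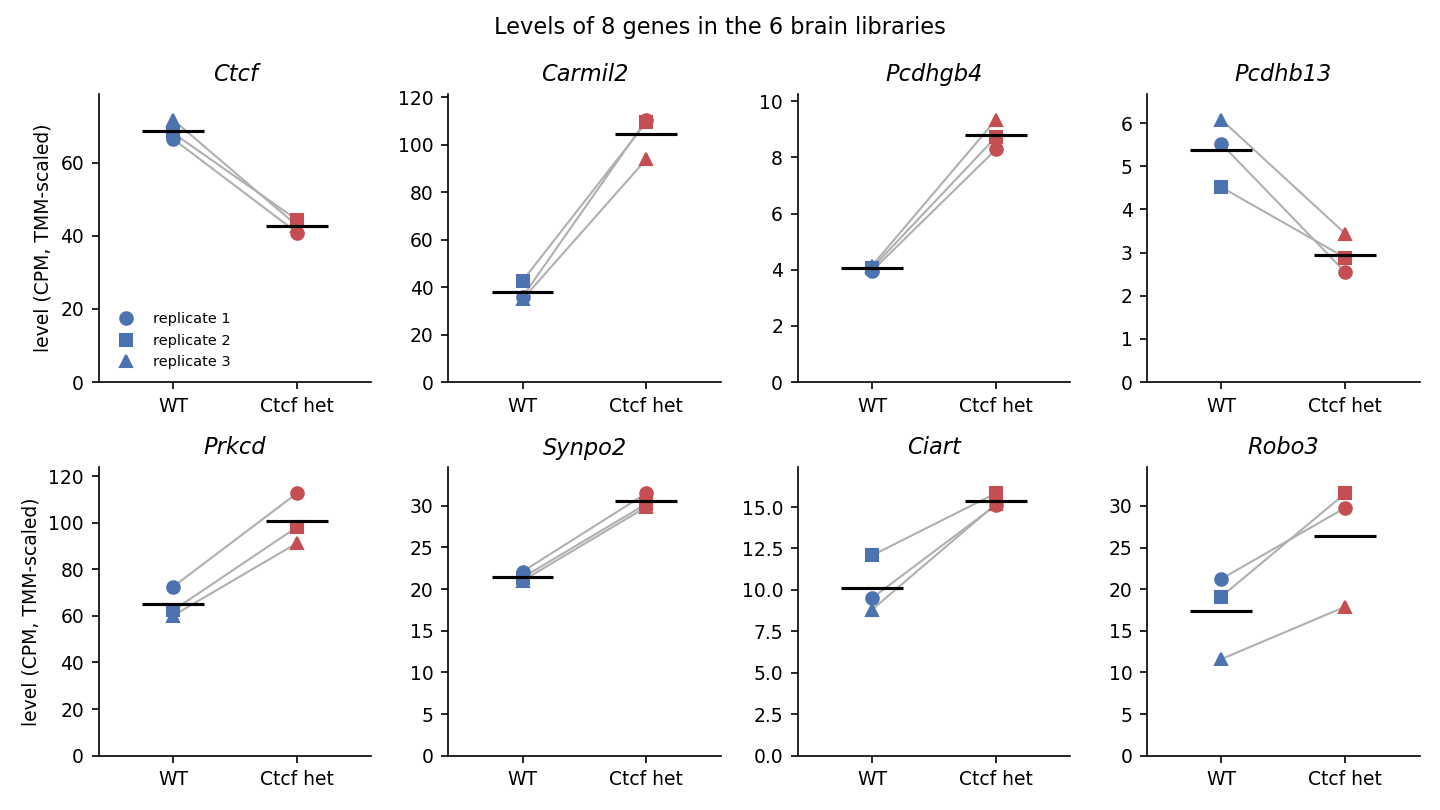
Level of 8 genes in each brain library (CPM, TMM-scaled, linear axis from 0) for WT and Ctcf heterozygous groups. Each marker shape is 1 replicate number, grey lines join libraries of the same number and black bars are group means (n = 3). Ctcf and Pcdhb13 were lower in all 3 heterozygous libraries, and in Robo3 the groups overlap although each heterozygous library lies above the WT library of its number.

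Clustered protocadherins differed between genotypes gene by gene. Of 58 such genes 54 were tested, and they did not move in 1 direction: the beta cluster leaned lower and the gamma cluster leaned higher. These are the genes at which CTCF is known to act on promoter choice, and the list was chosen for that reason and with earlier results of these data known. Exons of the alpha and gamma genes overlap one another because they share their last exons, so their counts cover only the unshared first exons and are uncertain.

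In the beta cluster, 22 of 22 genes were tested, 16 were lower and 6 higher, and the median log2 fold change was -0.24. Pcdhb13 (chr18:37442500-37446209) was at 5.51, 4.51 and 6.08 CPM in WT and 2.54, 2.88 and 3.44 CPM in heterozygous libraries. It fell with the block by 0.85 on the log2 scale (SE 0.12, adjusted p 0.016), while the adjusted p without the block was 0.679. Pcdhb9 was at 13.7, 13.5 and 13.3 CPM in WT and 10.1, 10.5 and 9.69 CPM in heterozygous libraries, a log2 difference of -0.42 (SE 0.08, adjusted p 0.071 with the block). In both genes every heterozygous library lay below every WT library, as in 8 of the 22 members, where 4.1% of all genes tested had heterozygous libraries lower without overlap. At an unadjusted p under 0.05, 8 members were lower and 0 higher. Over all genes tested 1.57% were lower and 1.39% higher at that threshold. Leaving out 1 library gave 3 to 9 members lower, with the lowest count, 3, without WT replicate 1.

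The gamma cluster was mixed. Of 22 genes 20 were tested, 14 were higher and 6 lower, and the median log2 fold change was 0.17. Pcdhgb4 (chr18:37720369-37841870, plus strand) was at 3.96, 4.06 and 4.14 CPM in WT and 8.28, 8.72 and 9.34 CPM in heterozygous libraries. Its heterozygous level was 217% of the WT level, the spread within groups was small, and the log2 fold change was 1.12 (SE 0.10, adjusted p 0.0255, and 0.00038 with the block). Without any 1 library, whichever of the 6, its change was 1.07 to 1.16 and no longer called without the block. Pcdhga6 went the other way, from 13.6, 12.6 and 18.3 CPM in WT to 9.21, 9.18 and 12 CPM in heterozygous libraries. It fell with the block by 0.54 on the log2 scale (SE 0.07, adjusted p 0.016). Of the 20 members tested 8 were higher and 3 lower at an unadjusted p under 0.05, and 7 were higher and 3 lower without overlap, where 3.73% of all genes tested were higher without overlap.

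Position within the gamma cluster went with direction. In order of start, the first 5 tested members lay above 0, Pcdhgb2, Pcdhga5 and Pcdhga6 below it, Pcdhga7 was near 0 with a log2 fold change of 0.08, and Pcdhgb4 and the 6 tested members after it were above 0. Among these, Pcdhgb5 had a log2 difference of 0.44 (SE 0.09) and Pcdhgb7 of 0.46 (SE 0.10), and neither passed adjustment (adjusted p 0.12 and 0.12 with the block). Pcdhga12, the next gene, was below 0 at -0.38 (SE 0.10). The run of neighbours was noticed after the values were seen, as were the names Pcdhgb2, Pcdhga5, Pcdhga7 and Pcdhga12. The most abundant member per kilobase, Pcdhgc5, was at 82.3, 92.2 and 112 CPM in WT and 91.8, 97.6 and 116 CPM in heterozygous libraries, with overlapping groups and a log2 difference of 0.09 (SE 0.13).

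In the alpha cluster 12 of 14 genes were tested, 11 were higher, and the median log2 fold change was 0.09. The pairs differed by -0.00, 0.40 and 0.11 on average. The median was 0.01 with 6 of 12 higher without WT replicate 2 or, with the block, without pair 2. It was -0.07 with 3 higher without heterozygous replicate 3 and 0.39 without WT replicate 3, while with the block it was 0.17 without pair 3 and 0.24 without pair 1. Pcdha6 was at 1.84, 1.5 and 2.22 CPM in WT and 2.88, 3.48 and 3.40 CPM in heterozygous libraries, a log2 difference of 0.82 (SE 0.17, adjusted p 0.066 with the block). It was the 1 member of the alpha cluster whose groups did not overlap. The most abundant, Pcdhac2, had overlapping groups and a log2 difference of 0.07 (SE 0.20).

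**Figure D2:**
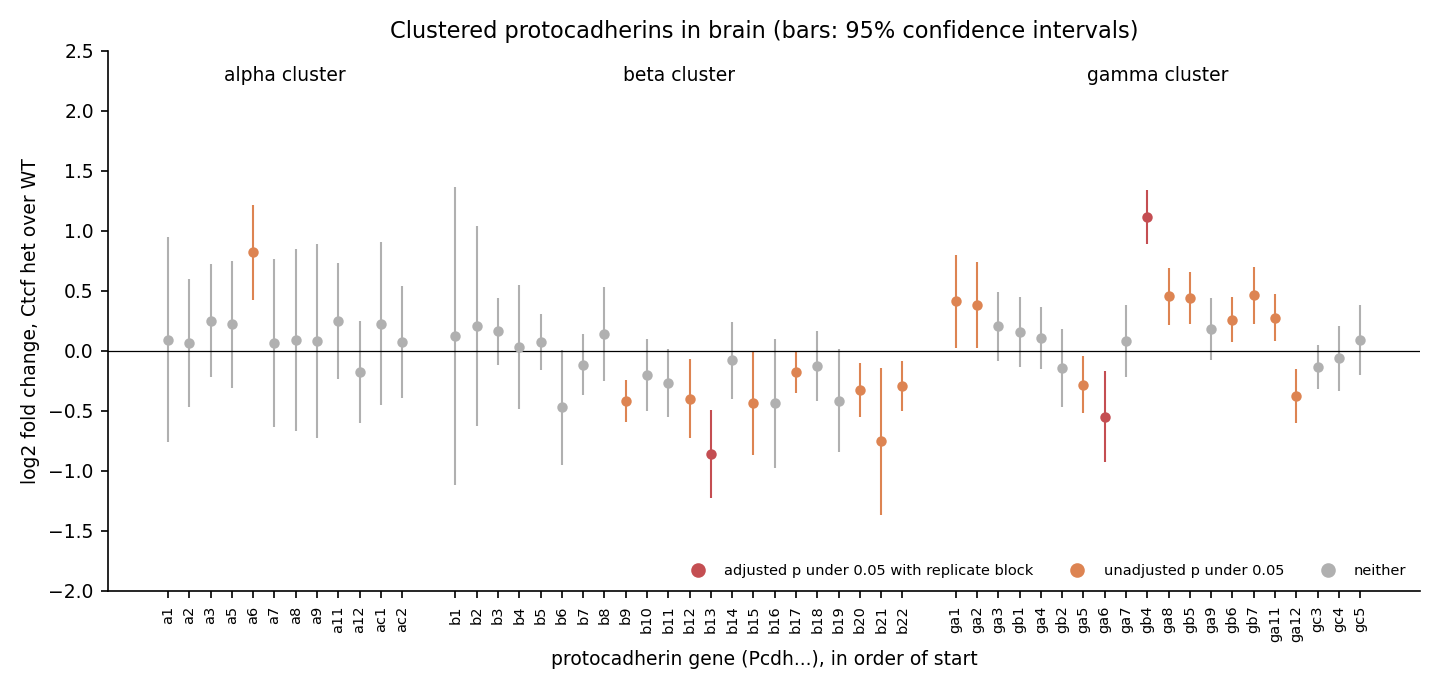
Log2 fold change (Ctcf heterozygous over WT) of the 54 clustered protocadherins tested, in order of their start within the alpha, beta and gamma clusters, with 95% confidence intervals from the fit without the block. Pcdhgb4 stands highest at 1.12, Pcdhb13 lowest at -0.86, and the intervals of most alpha genes cross 0.

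Genes of the thalamus, the relay station between sensory organs and cortex, gave 4 of the 12 genes that rose with the block. They were 4 of 27 listed genes, where 0.0626% of all genes tested rose with the block. The list was chosen with earlier results of these data known, so this count is no independent support for a thalamic change. Bulk tissue cannot tell more cells of a type apart from more RNA of these genes per cell, and this holds for every list of cell types or regions below. Prkcd, protein kinase C delta and a marker of thalamic relay neurons, was at 72.4, 62.3 and 60.1 CPM in WT and 113, 98.1 and 91.2 CPM in heterozygous libraries. All heterozygous libraries were above all WT libraries, and the 3 pairs differed by 0.64, 0.65 and 0.60 on the log2 scale (SE 0.05, adjusted p 0.00039 with the block and 0.392 without). Synpo2, an actin-binding protein, was at 22.1, 21.4 and 21.0 CPM in WT and 31.5, 30.2 and 29.9 CPM in heterozygous libraries. Its groups were narrow and apart, with a log2 difference of 0.51 (SE 0.06, adjusted p 0.0076 with the block).

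Plekhg1, a guanine nucleotide exchange factor, was at 29.4, 26.8 and 27.1 CPM in WT and 37.5, 37.3 and 38.7 CPM in heterozygous libraries. It rose with the block by a log2 difference of 0.45 (SE 0.06, adjusted p 0.016). Rgs16, which shuts off G-protein signals, rose with the block by 0.41 (SE 0.07, adjusted p 0.042), from 19.5, 23.4 and 19.6 CPM to 27.8, 30.9 and 24.4 CPM. Its exons overlap those of Gm28513.

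Of 27 thalamic genes listed all 27 were tested, 18 were higher and 9 lower, and the median log2 fold change was 0.20. At an unadjusted p under 0.05 without the block 7 were higher and 0 lower, and with the block 14 were higher and 1 lower, where 3.51% of all genes tested were higher and 3.18% lower with the block. The list was split within itself. Tnnt1, Ptpn3 and Lef1, named after their values were seen, had heterozygous libraries above all WT libraries, with log2 fold changes of 0.38, 0.20 and 0.35. The habenula genes Pou4f1 and Gpr151, also named after their values were seen, were lower in the first pair alone, at log2 differences of -2.15 and -1.73 between heterozygous and WT replicate 1. The mean of the 27 genes differed by -0.17, 0.24 and 0.23 in pairs 1, 2 and 3. Thus pair 1 went the other way, although 14 of 27 members were higher in it. The abundant member Rgs4 was at 499, 471 and 580 CPM in WT and 568, 533 and 576 CPM in heterozygous libraries, with overlapping groups.

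Markers of other regions varied across pairs to unlike degrees. Cerebellar genes differed by -0.05, -0.17 and -0.08 on average in pairs 1, 2 and 3. Hypothalamic genes (28 tested of 31) had a median log2 fold change of -0.18, but the pairs differed by -0.86, -0.34 and 0.44 on average. Heterozygous replicate 1 was the lowest library for this list. Summed over the 30 listed genes found by name, tested or not, it was at 234 CPM and the other 5 at 312 to 399 CPM. The median was -0.11 without heterozygous replicate 1 and -0.44 without heterozygous replicate 3. Trh, the thyrotropin-releasing hormone precursor, was at 15.1, 16.3 and 17.5 CPM in WT and 9.08, 11.1 and 15.5 CPM in heterozygous libraries, a log2 difference of -0.45 (SE 0.18, adjusted p 0.12 with the block). Oxt, the oxytocin precursor and the most abundant hypothalamic gene per kilobase, was at 17.9, 16.8 and 24.9 CPM in WT and 7.37, 17.0 and 27.9 CPM in heterozygous libraries. Olfactory bulb genes (30 tested) had a median of -0.09, cerebellar genes (30 tested) -0.08, hippocampal genes (21 tested) -0.03, striatal genes (24 tested) 0.03 and cortical genes (22 tested) 0.06. None of the genes in these 6 lists, the hypothalamus included, passed adjustment with or without the block in the fits of all 6 libraries. Without the block 4 of their genes had an unadjusted p under 0.05, Trh among them, which 2 of the lists hold. With the block, leaving out pair 3 called 8 hypothalamic genes, all lower, and leaving out pair 1 or 2 called 0. The brainstem and spinal list, a further list, had 13 genes tested of 34 and a median of -0.11. Its pairs differed by -0.25, -0.63 and 0.53 on average.

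Ependymal cells line the ventricles and bear motile cilia. Their genes were lower in heterozygous libraries: of 20 listed 19 were tested, 17 were lower and 2 higher, and the median log2 fold change was -0.36. None passed adjustment. At an unadjusted p under 0.05, 10 of 19 were lower and 0 higher (1.57% of all genes tested were lower), and in 11 of 19 the heterozygous libraries were lower without overlap (4.1% of all genes). Cfap126, a cilium protein, was at 3.62, 4.02 and 4.32 CPM in WT and 2.81, 3.02 and 3.10 CPM in heterozygous libraries, a log2 difference of -0.42 (SE 0.12, adjusted p 0.28 with the block). Dynlrb2, a dynein light chain, was at 2.54, 2.79 and 2.54 CPM in WT and 1.45, 2.02 and 2.04 CPM in heterozygous libraries, a log2 difference of -0.51 (SE 0.16, adjusted p 0.29 with the block). In both genes the groups were apart, and heterozygous replicate 1 was the lowest library.

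Tekt4, a tektin of the ciliary axoneme, was at 1.84, 1.95 and 0.929 CPM in WT and 0.921, 0.925 and 0.934 CPM in heterozygous libraries, so that WT replicate 3 lay among the heterozygous libraries. The most abundant member per kilobase, Pltp, a phospholipid transfer protein that endothelial cells also express, was at 41.9, 41.9 and 47.1 CPM in WT and 48.8, 44.5 and 48.7 CPM in heterozygous libraries. Foxj1, the master regulator of motile cilia and named after its values were seen, was at 17.0, 15.8 and 14.1 CPM in WT and 13, 14.1 and 15.2 CPM in heterozygous libraries, with overlapping groups.

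The pairs differed by -0.64, -0.26 and -0.15 on average over the 19 genes. Without heterozygous replicate 1 the median was -0.23 and 4 members were lower at an unadjusted p under 0.05, and without WT replicate 1 the count was 3. Choroid plexus genes, from the neighbouring epithelium (25 tested), did not follow: their median was 0.06 (-0.07 without WT replicate 3), and Ttr, the thyroid hormone carrier, was at 999.7, 1150 and 704 CPM in WT and 1118, 973 and 886 CPM in heterozygous libraries. Whether the amount of ventricle wall in each tissue piece took part was not tested.

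**Figure D3:**
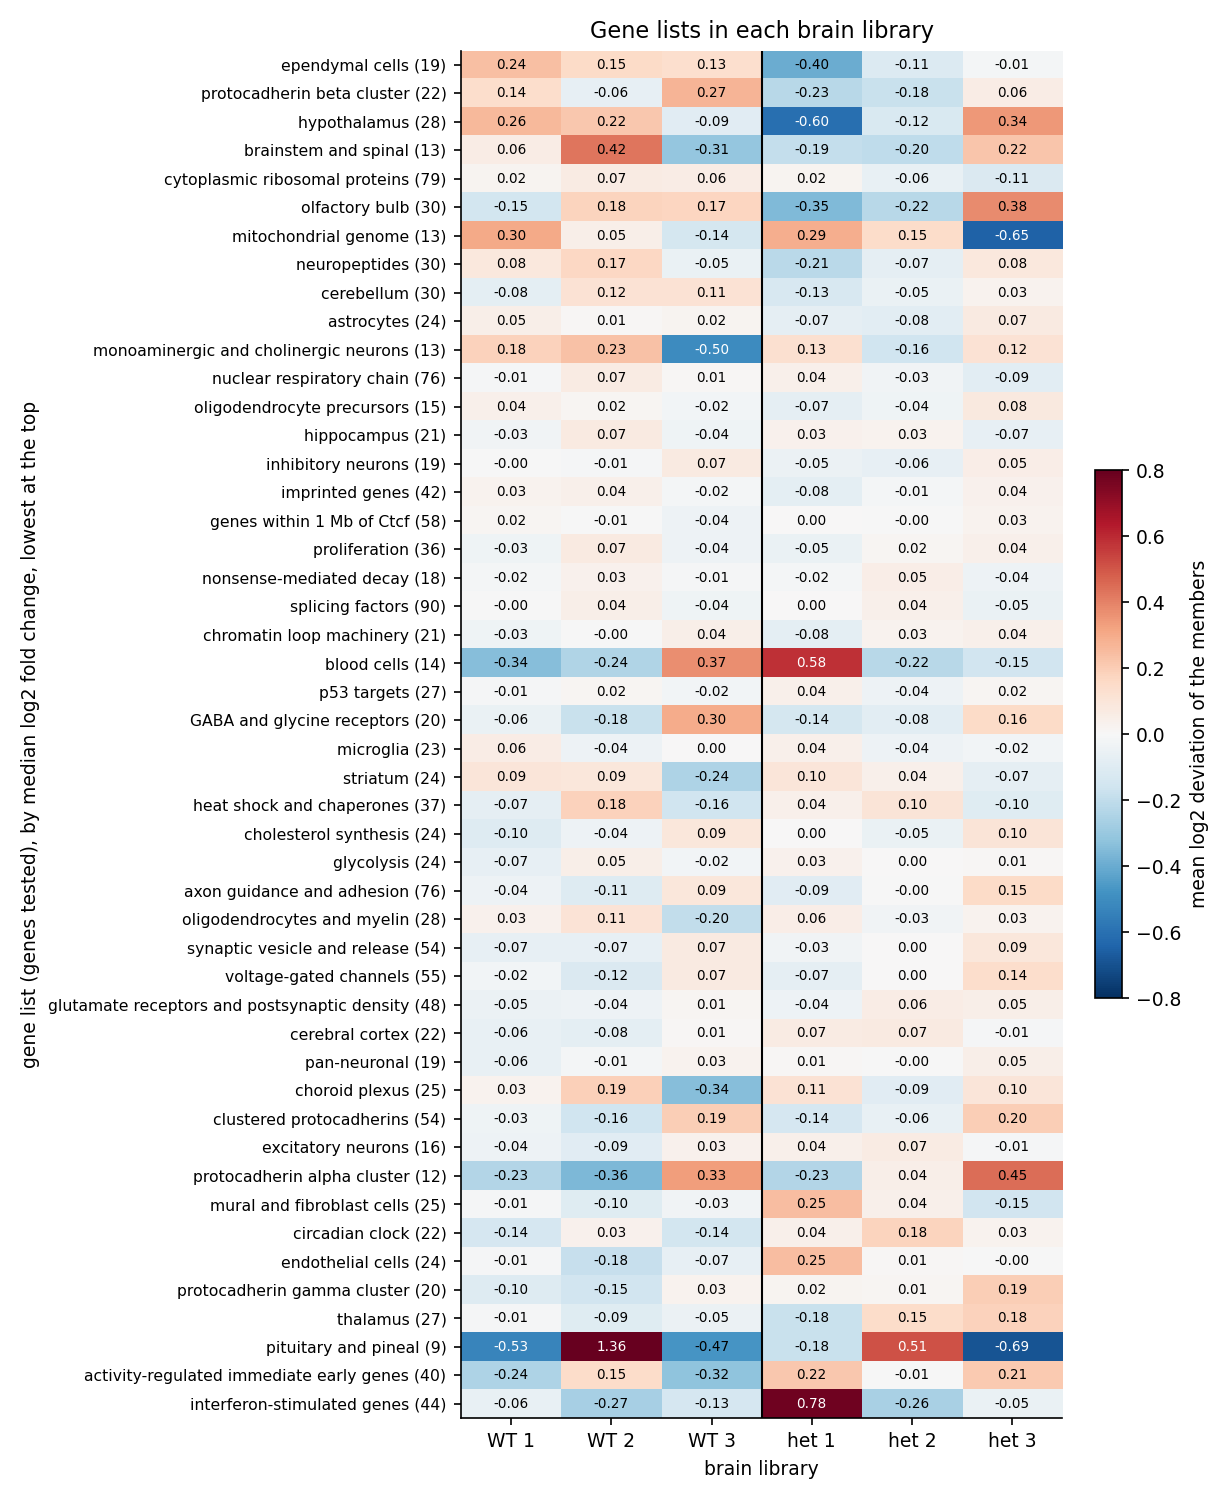
Mean log2 deviation of the members of each gene list from the mean of the 6 brain libraries, by library (columns) and list (rows, number of genes tested in parentheses, ordered by median log2 fold change). Colours stop at 0.8 in either direction and the numbers give the values; ependymal genes run from 0.24 in WT replicate 1 to -0.40 in heterozygous replicate 1, and interferon-stimulated genes reach 0.78 in heterozygous replicate 1.

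Clock genes were higher on average in all 3 pairs. The circadian clock is a loop in which the activators CLOCK and BMAL1 bind E-box sequences and switch on their own repressors. Ciart, one of these repressors, was at 9.50, 12.1 and 8.80 CPM in WT and 15.1, 15.8 and 15.2 CPM in heterozygous libraries. It rose with the block by a log2 difference of 0.61 (SE 0.09, adjusted p 0.019), and its groups were apart. Nr1d1, the nuclear receptor REV-ERB alpha, was at 96.7, 120 and 118 CPM in WT and 139.8, 137 and 145 CPM in heterozygous libraries, a log2 difference of 0.33 (SE 0.09, adjusted p 0.11 with the block). Per1, a core repressor, was at 85.4, 127 and 75.1 CPM in WT and 136, 134 and 120.1 CPM in heterozygous libraries, where WT replicate 2 lay within the heterozygous range.

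Of 22 clock genes tested 19 were higher, the median log2 fold change was 0.11, and the pairs differed by 0.18, 0.14 and 0.17 on average. The mean log2 deviation of the list was 0.0345 in WT replicate 2 and 0.039, 0.177 and 0.0301 in heterozygous replicates 1, 2 and 3, so the groups overlapped. Leaving out 1 library gave medians of 0.05 to 0.16, the lowest without heterozygous replicate 2. At an unadjusted p under 0.05 3 were higher and 0 lower without the block (1.39% of all genes were higher), and 9 higher and 0 lower with it (3.51% of all genes). The activator Arntl (BMAL1), named after its values were seen, had a log2 difference of -0.09 (SE 0.08). The most abundant member per kilobase, Tef, was at 320.1, 339 and 319.8 CPM in WT and 312, 366 and 321 CPM in heterozygous libraries. The labels give no time of day of collection, so its part in the clock genes was not tested.

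Promoters of 4 of the genes above are shown because members of a list moved together and because the E-box is the known entry point of the clock. Each is the 250 bases before the RefSeq start of the gene (GRCm38.p6), written 5′ to 3′ on the gene's strand, with capitals for an E-box (CACGTG) or for a short form of the CTCF core motif (CC, any 3 bases, AG, any 2 bases, GGC), searched on both strands together with the cyclic AMP response element TGACGTCA. The 4 were chosen after the matches were seen. They lie at chr3:95882229-95882478 (minus strand) for Ciart, chr11:98775378-98775627 (minus) for Nr1d1, chr14:30626209-30626458 (minus) for Prkcd and chr3:123236150-123236399 (minus) for Synpo2.
Ciart: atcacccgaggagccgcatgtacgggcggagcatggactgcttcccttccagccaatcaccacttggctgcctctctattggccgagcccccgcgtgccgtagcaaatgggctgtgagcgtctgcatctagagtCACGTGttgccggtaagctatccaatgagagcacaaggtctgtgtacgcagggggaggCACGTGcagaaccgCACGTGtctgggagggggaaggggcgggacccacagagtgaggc
Nr1d1: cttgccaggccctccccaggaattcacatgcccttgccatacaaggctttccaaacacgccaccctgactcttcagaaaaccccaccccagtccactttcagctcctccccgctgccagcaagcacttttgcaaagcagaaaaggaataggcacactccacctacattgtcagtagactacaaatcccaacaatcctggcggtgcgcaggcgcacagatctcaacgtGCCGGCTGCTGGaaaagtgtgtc
Prkcd: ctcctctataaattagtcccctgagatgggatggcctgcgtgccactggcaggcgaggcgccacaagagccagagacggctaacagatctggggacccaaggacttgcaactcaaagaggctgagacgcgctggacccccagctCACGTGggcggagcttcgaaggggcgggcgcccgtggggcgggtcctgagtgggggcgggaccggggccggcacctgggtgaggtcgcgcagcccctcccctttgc
Synpo2: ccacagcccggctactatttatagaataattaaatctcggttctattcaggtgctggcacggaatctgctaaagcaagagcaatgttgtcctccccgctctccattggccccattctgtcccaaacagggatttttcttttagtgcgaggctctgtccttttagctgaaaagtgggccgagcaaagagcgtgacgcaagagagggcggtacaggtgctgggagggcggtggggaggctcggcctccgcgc

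Ciart held 3 E-boxes, Prkcd 1 E-box, Nr1d1 1 CTCF core match and Synpo2 none of the 3 motifs. Of all 32851 promoter windows in the RefSeq table, 6.02% held an E-box, 7.17% the CTCF core form and 1.55% the cyclic AMP response element. Counted by gene, 5 of 18 clock genes with a window held an E-box (6.86% of all genes). That share was not particular to the clock list: 5 of 18 cholesterol synthesis genes and 8 of 31 immediate early genes held one. Other lists were low, with 0 of 11 pan-neuronal genes. Of genes called with the block, 1 of 18 held the CTCF core form (8.24% of all genes). Carmil2 has no entry in this table. A match is a run of letters and says nothing on binding.

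Immediate early genes, which neurons switch on within minutes of activity, were higher in 2 of the 3 pairs. Of 41 listed 40 were tested, 37 were higher and 3 lower, and the median log2 fold change was 0.23. None passed adjustment, 7 were higher and 0 lower at an unadjusted p under 0.05 (1.39% of all genes were higher), and 18 were higher at that threshold with the block (3.51% of all genes). Without WT replicate 2 the 7 became 24, and without WT replicates 1 and 3 in turn 1 and 2. The shares of all genes just given belong to the fits with no library left out. The pairs differed by 0.46, -0.15 and 0.53 on average, and 39, 7 and 39 of the 40 members were higher in pairs 1, 2 and 3. Fos was at 31.8, 35.3 and 32.5 CPM in WT and 60.5, 32.4 and 66.1 CPM in heterozygous libraries, so heterozygous replicate 2 lay at the WT level. Its log2 fold change was 0.67 (SE 0.23, adjusted p 0.31 with the block).

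Egr2 was at 6.83, 15.4 and 6.10 CPM in WT and 18.3, 14.1 and 24 CPM in heterozygous libraries, a log2 difference of 0.98 (SE 0.35, adjusted p 0.31 with the block). Here WT replicate 2 was the library that overlapped the other group. Klf10 was the 1 member whose groups did not overlap, at 31.7, 35.7 and 38.0 CPM in WT and 46.8, 39.8 and 43.1 CPM in heterozygous libraries. Arc, the most abundant member per kilobase, was at 251, 254 and 175 CPM in WT and 385, 193 and 313 CPM in heterozygous libraries. Without pair 2, the fit with the block called 16 of the 40 genes, all higher. With pair 1 or pair 3 left out it called 0, so this count rests on which pair is left out. Leaving out a pair also raised the count called over all genes, given below with the processing alternatives, and left fewer residual degrees of freedom.

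Interferon-stimulated genes were higher in heterozygous libraries by the median, and 1 library carried this. All 44 listed were tested, 41 were higher, and the median log2 fold change was 0.30. Heterozygous replicate 1 was at 520.2 CPM summed over the 44 genes, while the other 5 libraries were at 320.5 to 341 CPM. Irf7, a transcription factor of the interferon response, was at 1.97, 2.13 and 1.72 CPM in WT and 6.95, 2.45 and 2.67 CPM in heterozygous libraries. Gbp3, a guanylate-binding protein, was at 4.18, 3.32 and 3.37 CPM in WT and 8.26, 4.23 and 5.03 CPM in heterozygous libraries, a log2 difference of 0.68 (SE 0.25, adjusted p 0.099 with the block). B2m, the most abundant member per kilobase, was at 73.7 to 76.5 CPM in 5 libraries and at 105 CPM in heterozygous replicate 1. Without heterozygous replicate 1 the median was 0.00, 22 of 44 were higher and 1 had an unadjusted p under 0.05. Microglial genes (23 tested), which mark the resident immune cells, had a median of 0.01.

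Endothelial genes leaned higher, and genes of the other vessel cells did so in 2 of the 3 pairs. Of 24 endothelial genes 22 were higher, the median log2 fold change was 0.17, and the pairs differed by 0.26, 0.19 and 0.07. Sox17, a transcription factor of arterial endothelium, was at 2.86, 2.71 and 2.68 CPM in WT and 3.35, 3.39 and 3.25 CPM in heterozygous libraries, without overlap. Cdh5, the cadherin of endothelial junctions, was at 9.57, 8.09 and 9.95 CPM in WT and 11.8, 10.3 and 10.7 CPM in heterozygous libraries. None of the 24 passed adjustment, 2 were higher at an unadjusted p under 0.05 (1.39% of all genes) and 12 with the block (3.51% of all genes), and without heterozygous replicate 1 the median was 0.10 with 0 genes at that threshold. Bsg, the most abundant endothelial-listed gene per kilobase, was at 431, 439 and 408 CPM in WT and 457, 417 and 415 CPM in heterozygous libraries. Mural and fibroblast genes (25 tested, 19 higher) had a median of 0.10, with pair means of 0.26, 0.14 and -0.12, and without heterozygous replicate 1 the median was 0.00.

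The main neuronal and glial types differed little in the median. Median log2 fold changes were 0.06 for pan-neuronal genes (19 tested), 0.08 for excitatory neurons (16), -0.02 for inhibitory neurons (19), 0.04 for oligodendrocytes and myelin (28) and -0.04 for oligodendrocyte precursors (15). Not 1 member of these 5 lists had an unadjusted p under 0.05 without the block, and 8 had one with it, 4 higher and 4 lower. Astrocyte genes (24 tested) had a median of -0.05 with 18 lower, and the pairs differed by -0.12, -0.09 and 0.05 on average. At an unadjusted p under 0.05 without the block 3 were lower and 0 higher (1.57% of all genes were lower). In 5 of the 24 the heterozygous libraries were lower without overlap (4.1% of all genes). Gjb6, a gap junction protein, had a log2 difference of -0.22 (SE 0.08), S100b one of -0.16 (SE 0.06) and Cldn10 one of -0.16 (SE 0.07). None of the astrocyte genes passed adjustment. Etnppl, a phospho-lyase of ethanolamine phosphate that astrocytes express and that the astrocyte list did not hold, fell with the block by 0.45 on the log2 scale (SE 0.06, adjusted p 0.016), from 38.7, 33.9 and 43.9 CPM to 30.2, 24 and 31.4 CPM. Its groups were apart although both varied by replicate number.

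Synaptic and channel genes differed by little in the median. The median log2 fold change was 0.04 for synaptic vesicle genes (54 tested, 39 higher), 0.05 for glutamate receptors and postsynaptic density (48, 36 higher), 0.05 for voltage-gated channels (55, 36 higher) and 0.03 for axon guidance and adhesion (76, 51 higher). At an unadjusted p under 0.05 with the block, 11 of 55 voltage-gated channels were higher and 0 lower (3.51% of all genes were higher). The counts were 2 and 0 for synaptic vesicle genes, 4 and 0 for glutamate receptors and 7 and 1 for axon guidance. Without heterozygous replicate 3 the medians of voltage-gated channels and axon guidance were -0.01 and -0.03, and without WT replicate 2 that of axon guidance was -0.00. Robo3, a receptor that lets axons cross the midline, rose with the block by a log2 difference of 0.61 (SE 0.07, adjusted p 0.0052). It was at 21.2, 19.1 and 11.6 CPM in WT and 29.8, 31.5 and 17.9 CPM in heterozygous libraries, and the groups overlapped since both libraries of replicate 3 were low. Cplx3, a complexin of neurotransmitter release, was at 17.8, 19.2 and 18.2 CPM in WT and 26.8, 22.4 and 20.6 CPM in heterozygous libraries, a log2 difference of 0.34 (SE 0.10, adjusted p 0.28 with the block).

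All 79 cytoplasmic ribosomal protein genes were lower in heterozygous libraries, by little. The median log2 fold change was -0.10, in 26 of them the heterozygous libraries were lower without overlap (4.1% of all genes), and 8 had an unadjusted p under 0.05 (1.57% of all genes were lower). That count was 1 to 12 when 1 library was left out. Rps20 was at 134, 138 and 143 CPM in WT and 125, 121 and 119 CPM in heterozygous libraries, a log2 difference of -0.18 (SE 0.06, adjusted p 0.44 with the block). The pairs differed by -0.00, -0.13 and -0.18 on average, so pair 1 showed no difference in the mean. Without heterozygous replicate 3 the median was -0.08 and 72 of 79 were lower, since 7 were higher. Nuclear respiratory chain genes (76 tested, 63 lower) had a median of -0.04, but 62 of 76 were higher in pair 1, and without heterozygous replicate 3 the median was -0.01 with 34 higher. The 13 genes of the mitochondrial genome had a median of -0.08, and without heterozygous replicate 3, the lowest library, it was 0.11. Gene length went with these differences: over the shortest 10th of the genes tested (exon length of 47 to 1080 bases) the median was -0.05, with 6 genes higher and 41 lower at an unadjusted p under 0.05. Over the longest 10th it was 0.00, with 21 higher and 9 lower. Whether length or library quality set these small differences was not tested.

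The remaining genes called with the block had no list in common. Among those that rose, Abhd12b, an alpha/beta hydrolase, was at 1.68, 1.18 and 1.29 CPM in WT and 3.48, 2.93 and 2.18 CPM in heterozygous libraries, a log2 difference of 1.05 (SE 0.15, adjusted p 0.016). Wnt9b, a secreted Wnt ligand, rose from 1.38, 1.27 and 1.11 CPM to 2.63, 2.29 and 2.05 CPM (log2 fold change 0.89, adjusted p 0.032). Exd1, a protein of the piRNA pathway, rose from 1.75, 1.90 and 1.88 CPM to 3.25, 3.22 and 3.67 CPM (0.87, adjusted p 0.017). Apol8, of the apolipoprotein L family, rose from 4.82, 4.18 and 4.28 CPM to 7.06, 6.35 and 6.47 CPM (0.58, adjusted p 0.038). In these 4 genes all heterozygous libraries were above all WT libraries, and 3 of them were under 4 CPM throughout.

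Among those that fell with the block, Kazald1, a secreted Kazal-domain protein, went from 5.31, 4.59 and 4.99 CPM to 3.06, 2.33 and 2.81 CPM (log2 fold change -0.87, adjusted p 0.0085). Gstm6, a glutathione S-transferase with close relatives whose reads cannot always be told apart, went from 8.71, 9.35 and 8.48 CPM to 5.47, 5.35 and 5.65 CPM (-0.69, adjusted p 0.011). Thap12, a THAP-domain protein, went from 74.0, 72.4 and 79.1 CPM to 58.0, 58.3 and 55.9 CPM (-0.39, adjusted p 0.030). All 3 had groups that did not overlap. The other 3 genes that fell were unnamed gene models, given here after their values were seen: Gm16702 (log2 fold change -1.31, exons overlapping Sft2d1 and T2), Gm15169 (-2.09) and 2900052N01Rik (-0.47).

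Lists tied to the known roles of CTCF and to RNA processing showed no member past adjustment. Chromatin loop machinery (21 tested, among them cohesin subunits) had a median log2 fold change of -0.01, from -0.12 to 0.19, with 0 genes at an unadjusted p under 0.05 with or without the block. Splicing factors (90 tested) had a median of -0.01, from -0.12 to 0.10, also with 0 genes at that threshold by either fit. Nonsense-mediated decay genes (18 tested) likewise had a median of -0.01 and 0 genes. Imprinted genes (42 tested) had a median of -0.02, with 0 higher and 1 lower at that threshold without the block and 0 higher and 5 lower with it (3.18% of all genes). The 1 was Nap1l5, at 446, 453 and 453 CPM in WT and 381, 416 and 418 CPM in heterozygous libraries (log2 fold change -0.16, SE 0.06).

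Effect sizes in brain were small and well bounded. The median absolute log2 fold change over all genes was 0.07 and its 95th percentile 0.42. The 95% confidence interval of the fold change lay within 1.5-fold in both directions for 13490 genes, or 70.4% of those tested, and within 2-fold for 16991 genes, or 88.7%. For the 7989 genes between 10 and 100 CPM, 97.2% were bounded within 1.5-fold, and for the 4367 genes under 1 CPM the share was 7.79%. Only 55 genes had a fitted change beyond 2-fold, and 43 of them were under 1 CPM. The block lowered the median standard error from 0.12 to 0.08. Without any threshold on multiple testing 567 genes, or 2.96%, had an unadjusted p under 0.05 without the block and 1283, or 6.69%, with it. The groups did not overlap for 7.83% of genes.

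**Figure D4:**
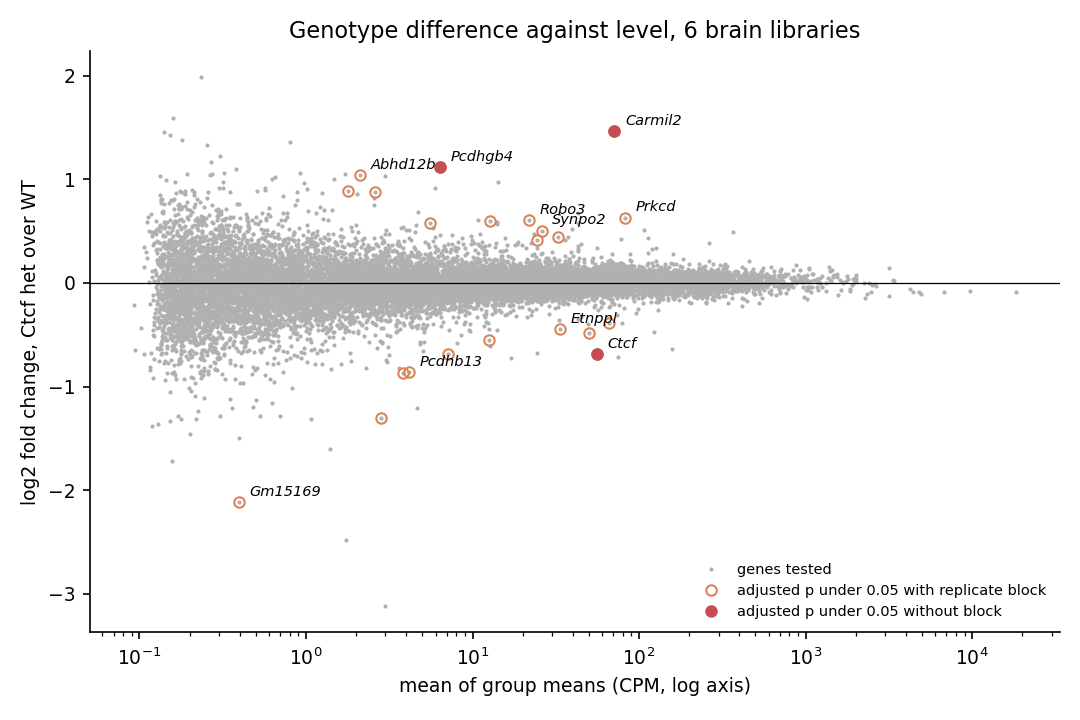
Log2 fold change (Ctcf heterozygous over WT, fit without the block) against mean level in CPM (log axis) for the 19166 genes tested. Filled circles mark the 3 genes called without the block and open circles those called with it; Carmil2 at 1.47 lies alone among genes of its level.

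Replicate number accounted for more of the variance than genotype. Over all genes tested it held 59.7% of the sum of squares around the mean, genotype 14.7% and the rest 25.6%. Replicate number has 3 levels and genotype 2, so replicate number takes the larger share on average even without any effect. The first principal component held 46.7% of the variance, and 94.8% of its variance lay between replicate numbers and 0.942% between genotypes. It set the 2 libraries of replicate 3 apart from the other 4. Genotype was largest on the third component, which held 14.4% of the variance, at 62.8%. Deviations from the group means correlated across genes between same-numbered libraries with r of 0.207, 0.383 and 0.537. Genes are not independent replicates, so these values carry no test. Heterozygous replicate 1 correlated with WT replicate 2 at 0.216, slightly more than with WT replicate 1. Same-numbered r was 0.209, 0.19 and 0.212 in kidney, 0.0512, 0.118 and 0.277 in liver and 0.0829, 0.183 and 0.271 in muscle. In spleen it was -0.472, -0.227 and 0.475. WT replicate 1 correlated more with heterozygous replicate 2 than with its own number in spleen (0.764), liver (0.274) and muscle (0.119). The labels do not say what a number stands for, and a shared cage, day or preparation cannot be told apart.

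**Figure D5:**
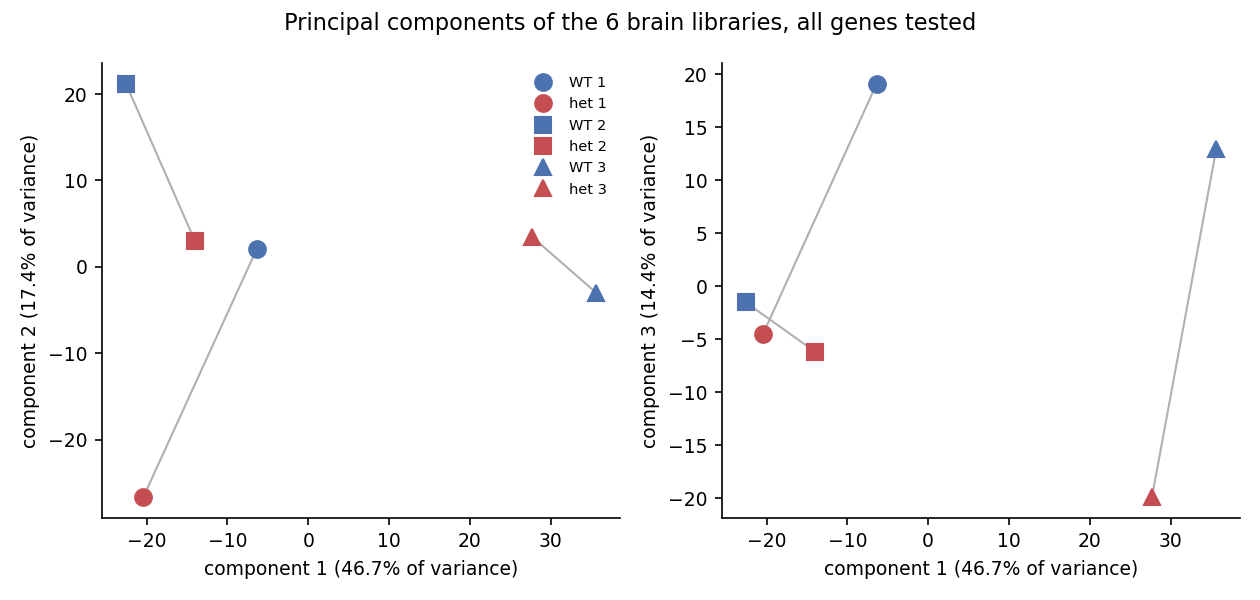
Scores of the 6 brain libraries on principal components 1 and 2 (left) and 1 and 3 (right) over all genes tested, with the share of variance on each axis. Colours mark genotype, shapes replicate number, and grey lines join same-numbered libraries; replicate 3 lies alone on the right of component 1.

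The replicate number had an adjusted p under 0.05 for 2041 genes, or 10.6% of those tested. Most of these had replicate 3 as the number farthest from the other 2: 909 genes were higher there and 693 lower. The higher genes were long, with a median exon length of 6135 bases, the lower ones had 3151 bases, and all genes tested had 3488. Gucy1a2, a subunit of guanylate cyclase, was at 3.10, 2.17 and 13 CPM in WT and 2.35, 2.55 and 14 CPM in heterozygous libraries. Dgkh, a diacylglycerol kinase, was at 5.61, 3.51 and 21.9 CPM in WT and 3.85, 5.11 and 21.3 CPM in heterozygous libraries. In both genes replicate 3 was several times higher in either genotype, and the genotype means were close.

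Replicate 2 was the number farthest from the other 2 for 203 genes that were higher there and 132 that were lower. Per2, a clock repressor, was at 20.1, 46.8 and 18.5 CPM in WT and 25.8, 51.3 and 23.7 CPM in heterozygous libraries (adjusted p of the replicate number 3.2e-05). Fosb, an immediate early gene, was at 7.60, 30.2 and 9.17 CPM in WT and 16.2, 24.5 and 20.1 CPM in heterozygous libraries (adjusted p 0.014). In replicate 1, Sult1a1, a sulfotransferase, was higher at 12.5, 8.45 and 7.29 CPM in WT and 11.3, 6.52 and 5.89 CPM in heterozygous libraries (adjusted p 0.00092). By list, beside 10.6% of all genes, the replicate number was called for 69.2% of the mitochondrial genome, 58.3% of alpha protocadherins and 40.0% of olfactory bulb genes. It was also called for 38.2% of voltage-gated channels, 37.5% of endothelial genes and 36.8% of axon guidance genes. For interferon-stimulated genes the share was 36.4%, for blood cell genes 35.7% and for immediate early genes 35.0%. The share was 7.41% for thalamic genes and 0% for ependymal genes. These shares do not say which number differed.

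The brain effect was set against the mean effect in the other 4 tissues in a fit of all 30 libraries, over 24262 genes. One gene differed at an adjusted p under 0.05, or 0.00412%, and 462, or 1.9%, at an unadjusted p under 0.05. It was Carmil2, with log2 fold changes of 1.53 for brain, 5.34 for kidney, 5.33 for liver, 7.64 for muscle and 0.81 for spleen. The difference of brain from the mean of the others was -3.25 (SE 0.26, adjusted p 1.3e-07). On the log2 scale the rise in brain was thus smaller than that mean. In that fit the mean level went from 26.7 to 77.5 CPM in brain and from 103 to 180.3 CPM in spleen. WT levels in kidney, liver and muscle were 0.819, 0.982 and 0.131 CPM, and heterozygous levels 33.4, 39.4 and 26.9 CPM. Prkcd had log2 fold changes of 0.70 in brain and 0.03 to 0.12 in the other 4, a difference of 0.63 (SE 0.16) that did not pass adjustment (adjusted p 0.939). For Ctcf the brain value of -0.62 differed from the others by 0.01 (SE 0.16). For Pcdhgb4 the difference was 0.27 (SE 0.56), with 1.18 in brain and 0.55 to 1.36 elsewhere. Thap12 was lower in heterozygous libraries of every tissue, at -0.32 for brain, -0.57 for kidney, -0.35 for liver, -0.28 for muscle and -0.35 for spleen, and its difference was 0.07 (SE 0.13).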

How the data were processed

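RNA-seq of 3 WT and 3 Ctcf heterozygous brain libraries was used. The authors deposited raw counts per gene, made with featureCounts from alignments in the IRFinder pipeline on Ensembl exons of GRCm38, without strand, without fragments aligned to several places or shared by genes, per the file headers. STAR, FastQC and DESeq2 are named in the submitters' processing notes. Aligner settings are not given in the sources used here.

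Tests used edgeR 4.0.16 in R 4.3.3, with filterByExpr, TMM, quasi-likelihood F-test, Benjamini-Hochberg adjustment, calls under 0.05. Levels are TMM-scaled CPM. Depth is 49.8 M to 131.6 M counts, and a count of 0 allows 3 counts, or 0.0228 to 0.0602 CPM, for counting error only. No pair of replicates agreed within sampling noise. The design text speaks of 3 mice per genotype, and p-values measure the spread between these libraries. Alternatives were DESeq2 1.42.0, limma-voom (limma 3.58.1), other scalings and filters, a minimum fold, all 30 libraries, the replicate block and leaving out libraries. Same-numbered libraries correlated at 0.207, 0.383 and 0.537, all above 0.1; the numbers come from the sample titles, and the pairing rests on these correlations alone. The test was checked on simulated counts.

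Comparisons, gene lists and the naming rule were chosen with earlier results of these data known. The rule names Ctcf, called genes, up to 12 genes per direction called with the block (mean of at least 1 CPM), per list the most abundant per kilobase and up to 3 with the smallest p, up to 5 genes per replicate number and direction (mean of at least 5 CPM), and the 5 with the smallest p between tissues. No list was tested as a set. Of the listed symbols 8 were not found under that name and are not analysed here. Promoters are from RefSeq (GRCm38.p6), matched by symbol for 18 of the 22 genes called with the block.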

Additional observations from a re-analysis of the deposited data

Results flagged for a closer look

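Carmil2 was the gene whose heterozygous effect differed between brain and the mean of kidney, liver, muscle and spleen after adjustment. The difference in log2 fold change was -3.25 (SE 0.26, adjusted p 1.3e-07, edgeR contrast in the fit of all 30 libraries). Brain showed 1.53 and spleen 0.81, while kidney, liver and muscle showed 5.34, 5.33 and 7.64. These values start from unlike WT levels: 26.7 CPM in brain, 103 in spleen, and 0.819, 0.982 and 0.131 in kidney, liver and muscle. Heterozygous levels were 77.5 CPM in brain, 180.3 in spleen, and 33.4, 39.4 and 26.9 in kidney, liver and muscle. Carmil2 was higher in 3 of 3 heterozygous brain libraries than in any WT brain library.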

How the results depend on the processing

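No called gene changed sign under the alternatives. The called genes in brain, 3 in all, became 28 (14 higher, 14 lower) with DESeq2, 6 (4 higher, 2 lower) without a filter on low counts, 1 with a minimum fold of 1.2 and 1 in the fit of all 30 libraries. Leaving out 1 library gave 0 to 1, with 0 without WT replicate 1 (363 genes at an unadjusted p under 0.05, edgeR), heterozygous replicate 1 (403) or heterozygous replicate 2 (375). With the replicate block, the paired fit, 22 genes were called, and 3 without it. The 22 became 39 (21 higher, 18 lower) with DESeq2 and 41, 54 and 107 when pair 1, 2 or 3 was left out, of which 20, 18 and 21 were among the 22. Fewer residual degrees of freedom remain in these fits, and the cause of the larger counts was not tested.

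The fall of Ctcf lost its call with a minimum fold of 1.2 (-0.69, adjusted p 0.148), in the fit of all 30 libraries (-0.62, adjusted p 1) and without any 1 library (-0.72 to -0.65, adjusted p 0.1005 to 0.292). Between tissues the count of 1 became 0 when at least 10 counts were asked of every library (91 genes at an unadjusted p under 0.05, edgeR). Carmil2 was at a mean of 0.131 CPM in WT muscle and may not have passed that filter, so the 0 does not bear on its difference. With the replicate block the count was 3. Genes under 1 CPM have wide intervals: 7.79% of them are bounded within 1.5-fold. Among list medians under alternatives 429 moved by less than the spread between replicates and 12 by more, and the median of the clustered protocadherins went from 0.07 to -0.16 without heterozygous replicate 3.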

Other observations

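The pituitary hormone genes Prl and Pomc were highest in 1 library. Prl, the prolactin gene, was at 15.8 CPM in WT replicate 2 and at 0.0259 to 1.23 CPM in the other 5 brain libraries. Pomc was at 13.7 CPM in the same library and at 1.68 to 3.73 CPM in the others. S100a8, a neutrophil gene, was at 2.94 CPM in heterozygous replicate 1 and at 0.261 to 0.989 CPM in the others. Slc6a3, the dopamine transporter of midbrain neurons, was at 4.16 CPM in WT replicate 3 and at 9.14 to 21.0 CPM in the other 5. Sspo, the secreted protein of the subcommissural organ, was at 8.04, 8.17 and 2.34 CPM in WT and 4.08, 4.29 and 3.49 CPM in heterozygous libraries.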
